A study of Mus musculus with 6 samples.

Results

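Toll-like receptors are transmembrane proteins by which myeloid cells recognise microbial and misplaced host molecules. Surface receptors such as Tlr2 and Tlr4 bind lipoproteins and lipopolysaccharide, whereas Tlr3, Tlr7, Tlr8, Tlr9 and Tlr13 sit in endosomes and bind nucleic acids, which Unc93b1 makes possible by carrying them out of the endoplasmic reticulum. Most of them signal through the adaptor Myd88 to NF-kB and interferon regulatory factors, and Tlr9 is the receptor for unmethylated CpG DNA, a feature of mitochondrial DNA (mtDNA). The genes described here are 10, chosen by symbol for their role: the 8 receptors Tlr1, Tlr2, Tlr3, Tlr4, Tlr7, Tlr8, Tlr9 and Tlr13, the chaperone Unc93b1 and the adaptor Myd88. They were chosen with earlier results of these data known. Each symbol matched 1 of the 55359 rows of the count table, and all 10 passed the filter on low counts.

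The cells were myeloid-derived suppressor cells (MDSCs), immature myeloid cells that restrain T cells, grown from C57BL/6 mouse bone marrow for 4 days in GM-CSF and IL-6 at 40 ng/ml each. The polymorphonuclear fraction was taken with a commercial isolation kit and re-seeded. In the mtDNA group (3 libraries) the cells were transfected with mtDNA at 250 ng/ml using a lipid reagent, and in the blank group (3 libraries) they were not, and polyadenylated RNA was sequenced from both after 12 h. The labels give neither the source of the mtDNA, nor whether blank cells met the reagent, nor whether libraries came from separate mice, so each p-value reflects library-to-library spread that may be technical in origin. No group received another DNA, and an effect of mtDNA cannot be told apart from an effect of the reagent or of transfected DNA in general.

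Libraries held 4018360 to 4911103 counts, so 1 read equals 0.204 to 0.249 CPM (counts scaled to library size). The 12 neutrophil markers spanned a wide range in blank cells, from Mmp8 (2545 CPM) and S100a9 (1819 CPM) down to Elane (63.8 CPM), Camp (33.5 CPM), Ly6g, the surface antigen of the polymorphonuclear subset (4.87 CPM), and Retnlg (3.45 CPM). The monocyte and macrophage receptor gene Csf1r stood at 1424 CPM. All values are of bulk RNA from these cultures, in which more cells of a type and more RNA per cell cannot be told apart.

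Of the 10 genes, 7 had a promoter window in the RefSeq table used here, which spans 250 bases before to 50 bases after the annotated start. Tlr4, Tlr7 and Unc93b1 had none. The upstream parts of 3 windows are shown because they belong to the adaptor of most of the receptors, to the most abundant surface receptor and to the DNA receptor. Each is cut where an exon of the GENCODE annotation begins, is given on the gene's strand, and carries GRCm38.p6 coordinates, an earlier build than the GRCm39 of the counts. Capitals mark matches to the motifs described below.
Myd88, chr9:119340042-119340268, minus strand: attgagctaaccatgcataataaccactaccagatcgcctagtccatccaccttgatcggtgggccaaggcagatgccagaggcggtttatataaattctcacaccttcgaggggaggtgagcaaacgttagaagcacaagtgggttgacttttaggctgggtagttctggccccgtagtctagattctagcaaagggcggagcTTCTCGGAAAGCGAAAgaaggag
Tlr2, chr3:83841768-83841858, minus strand: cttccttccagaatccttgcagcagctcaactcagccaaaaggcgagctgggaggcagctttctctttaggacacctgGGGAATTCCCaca
Tlr9, chr9:106222348-106222597, plus strand: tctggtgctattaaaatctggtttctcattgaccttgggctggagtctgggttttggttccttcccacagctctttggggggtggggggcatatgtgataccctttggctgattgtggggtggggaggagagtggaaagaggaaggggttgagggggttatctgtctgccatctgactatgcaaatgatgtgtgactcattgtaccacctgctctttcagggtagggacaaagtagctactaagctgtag

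Both strands of each window were searched for an interferon-stimulated response element (GAAANNGAAA), a gamma-activated sequence (TTCNNNGAA, which reads the same on both strands) and a kappa-B site (GGGNNTTNCC). The capitals in Myd88 hold 2 overlapping matches, a gamma-activated sequence from position -46 and a response element from position -40, where -1 is the base before the start. Those in Tlr2 are a kappa-B match from position -172, and the Tlr9 window held none of the 3 motifs. Tlr8 had a gamma-activated sequence match from position -106. In Tlr3 a kappa-B match, and in a second window of Tlr1 a gamma-activated sequence match, fell within exons. Tlr13 had no match. Of all 32851 windows of this length, 3.44% held the response element, 8.30% the gamma-activated sequence and 4.79% the kappa-B site. A match describes letters only.

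After transfection the RNA of all 5 endosomal receptors was more abundant, together with that of Unc93b1 and Myd88. Tlr3 rose most, 3.86-fold, then Tlr9 (1.90-fold), Tlr7 (1.57-fold), Tlr8 (1.49-fold) and Tlr13 (1.28-fold). Myd88 and Unc93b1 rose 1.43-fold and 1.41-fold. Among the surface receptors Tlr1 and Tlr2 rose 1.28-fold and 1.16-fold, and Tlr4 did not pass the test. At an edgeR adjusted p under 0.05, 9 of the 10 genes were higher, where 11.9% of the 11190 tested genes were higher and 5.98% lower. None of the 10 was lower, also at an unadjusted p under 0.05 in edgeR, DESeq2 or limma-voom (0 genes in each). The median log2 fold change of the 10 genes was 0.51, beside -0.01 for all tested genes. The lowest mtDNA library lay above the highest blank library for all 10 genes in TMM-scaled CPM. This order was shown by 17.9% of tested genes, and the opposite one by 15.6%. With scaling by library totals the sign of the log2 fold change turned for Tlr4 alone of the 10. The order of libraries was not computed under that scaling.

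**Figure D1:**
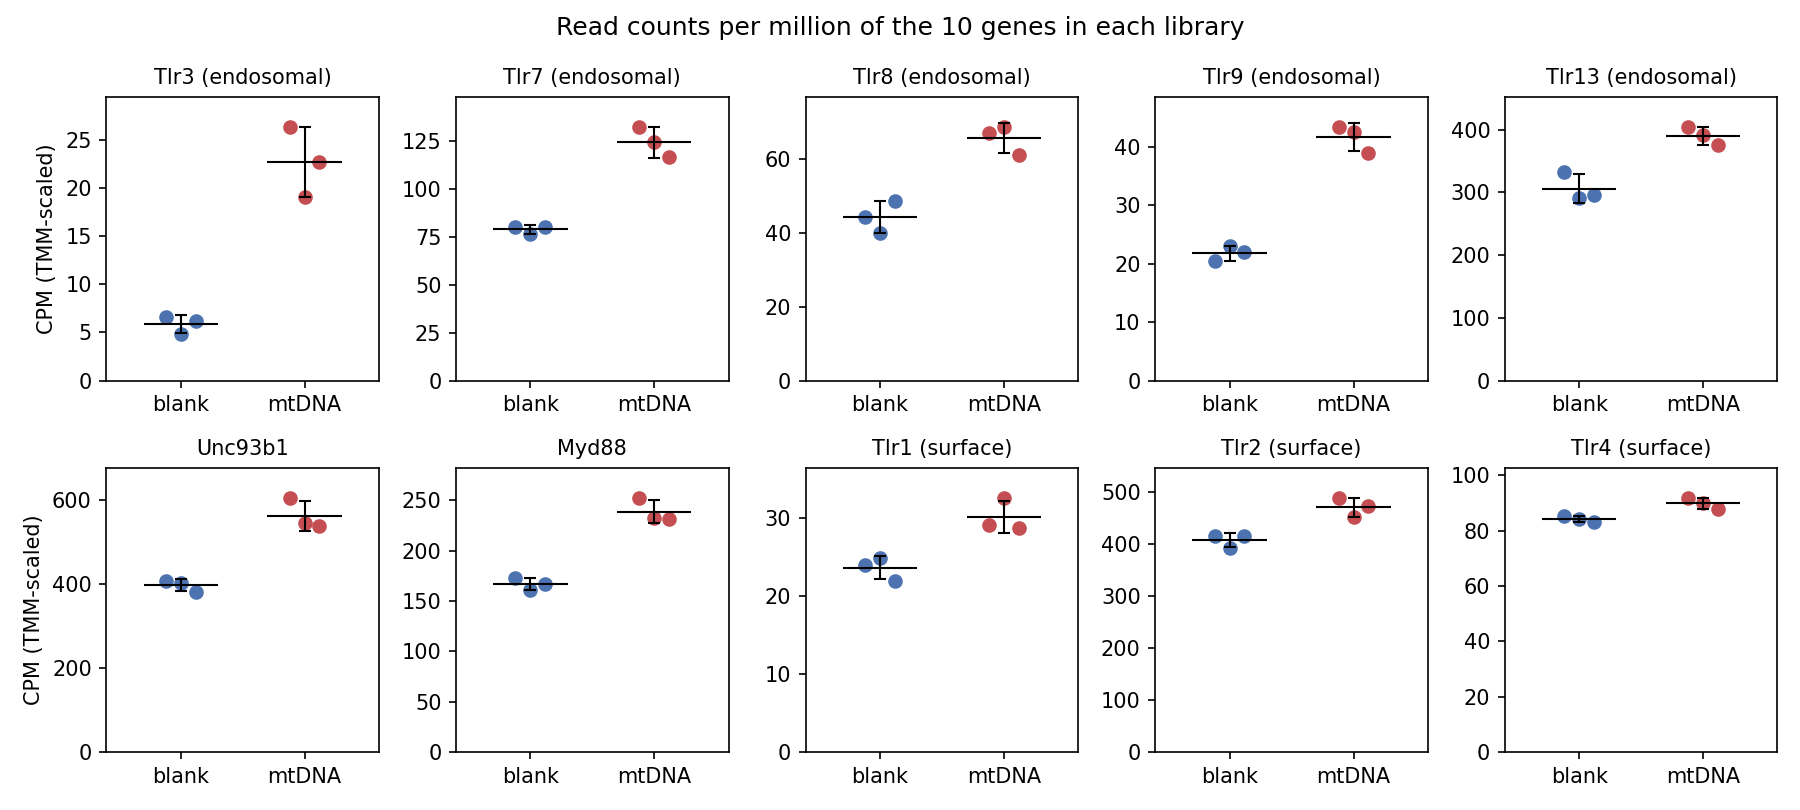
CPM (scaled by TMM factors, axis from 0) of each gene in the 3 blank (blue) and 3 mtDNA (red) libraries, with the group mean and its SD. The groups are separated in every panel, widely for Tlr3 and Tlr9 (5.87 against 22.7 and 21.8 against 41.7 CPM) and narrowly, under this scaling, for Tlr4 (84.2 against 89.9 CPM).

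Tlr9 (ENSMUSG00000045322), the endosomal receptor for CpG DNA, had 87, 115 and 92 reads in blank 1, 2 and 3 and 170, 199 and 184 in mtDNA 1, 2 and 3. Scaled with TMM factors these were 20.5, 23.0 and 22.0 CPM in blank and 43.4, 42.6 and 38.9 CPM in mtDNA cells. Every mtDNA library thus held well over the amount in any blank library. The means were 21.8 ± 1.29 and 41.7 ± 2.39 CPM (SD, n = 3 libraries each), a log2 fold change of 0.93 ± 0.10 (SE; 95% interval 0.71 to 1.14; edgeR adjusted p = 5.42e-07). Of the 11190 tested genes, 308 rose more.

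Tlr3 (ENSMUSG00000031639) binds double-stranded RNA and, unlike the other receptors here, signals through Ticam1 and not Myd88. It had few reads in blank cells, 28, 24 and 26, and 103, 89 and 107 in mtDNA cells. This was 6.59, 4.81 and 6.21 against 26.3, 19.1 and 22.6 CPM, so the lowest treated library exceeded the highest blank one by a wide margin. The log2 fold change was 1.95 ± 0.18 (SE; 95% interval 1.57 to 2.32; edgeR adjusted p = 2.36e-08), and 119 tested genes rose more. Its exons overlap an antisense gene, Gm45542, over 7.32% of their length, but that gene had 2 reads in all 6 libraries.

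Tlr7 (ENSMUSG00000044583) and Tlr8 (ENSMUSG00000040522) are neighbouring X-linked genes whose proteins recognise single-stranded RNA and its breakdown products. Tlr7 had 79.8, 76.1 and 80.2 CPM in blank and 132, 124 and 116 CPM in mtDNA cells. The blank libraries barely varied, and the difference was several times the spread of either group (log2 0.66 ± 0.068, edgeR adjusted p = 1.42e-07). Tlr8 had 44.3, 39.9 and 48.5 CPM in blank and 66.9, 68.5 and 61.0 CPM in mtDNA cells. Here the blank libraries were more scattered, without reaching the treated ones (log2 0.57 ± 0.088, edgeR adjusted p = 4.38e-05).

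Tlr13 (ENSMUSG00000033777), which recognises bacterial ribosomal RNA, was the most abundant endosomal receptor. It had 332, 291 and 296 CPM in blank and 404, 391 and 376 CPM in mtDNA cells. Blank 1 was the highest of its group and mtDNA 3 the lowest of its own, and they did not meet (log2 0.35 ± 0.057, edgeR adjusted p = 7.98e-05).

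Unc93b1 (ENSMUSG00000036908), the chaperone that all 5 endosomal receptors need to reach their compartment, had 408, 402 and 380 CPM in blank and 603, 543 and 538 CPM in mtDNA cells. The treated libraries were all higher, mtDNA 1 most so, with a log2 fold change of 0.50 ± 0.054 (edgeR adjusted p = 2.74e-07). Myd88 (ENSMUSG00000032508) had 173, 161 and 167 CPM in blank and 252, 232 and 232 CPM in mtDNA cells. The rise of the adaptor (log2 0.51 ± 0.057, edgeR adjusted p = 4.77e-07) was close in size to that of the chaperone, with 95% intervals of 0.39 to 0.63 and 0.39 to 0.61. Of the exon bases of Myd88, 11.3% lie opposite the gene Acaa1a, and the strand setting of the counting is not given, so reads there may be missing or shared.

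Tlr2 (ENSMUSG00000027995), which pairs with Tlr1 or Tlr6 to bind lipoproteins, was the surface receptor with most reads, at 415, 392 and 416 CPM in blank and 488, 452 and 473 CPM in mtDNA cells. The lowest treated library was mtDNA 2, still above every blank one, and the log2 fold change was 0.21 ± 0.050 (edgeR adjusted p = 0.00523). Its partner Tlr1 (ENSMUSG00000044827) had 24.0, 24.8 and 22.0 CPM in blank and 29.1, 32.6 and 28.8 CPM in mtDNA cells (log2 0.35 ± 0.11, edgeR adjusted p = 0.0302). Tlr1 shares 11.5% of its read-length windows with Tlr6, so its count is uncertain. Tlr4 (ENSMUSG00000039005), the receptor for lipopolysaccharide, had 85.2, 84.4 and 83.1 CPM in blank and 91.7, 90.2 and 87.8 CPM in mtDNA cells. Its libraries did not overlap, but the ratio of the groups was 1.07 with a 95% interval of 0.971 to 1.17 (edgeR adjusted p = 0.369).

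The calls of both rising surface receptors depended on the scaling between libraries, and those of the other 7 rising genes did not. With upper-quartile factors the adjusted p in edgeR was 0.0630 for Tlr2 and 0.0782 for Tlr1, and with library totals alone it was 0.177 and 0.123. With library totals the median over the 11190 tested genes moved to -0.13 and the log2 fold change of Tlr4 to -0.026 (adjusted p = 0.801). Of all genes called, 66.5% were higher with TMM (1327 against 669 lower), 39.2% with upper-quartile factors (970 against 1504) and 26.8% with library totals (861 against 2356). The call of Tlr1 also ended in DESeq2 (adjusted p = 0.173) and in edgeR without blank 1 (0.0590), blank 3 (0.112) or mtDNA 2 (0.142).

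**Figure D2:**
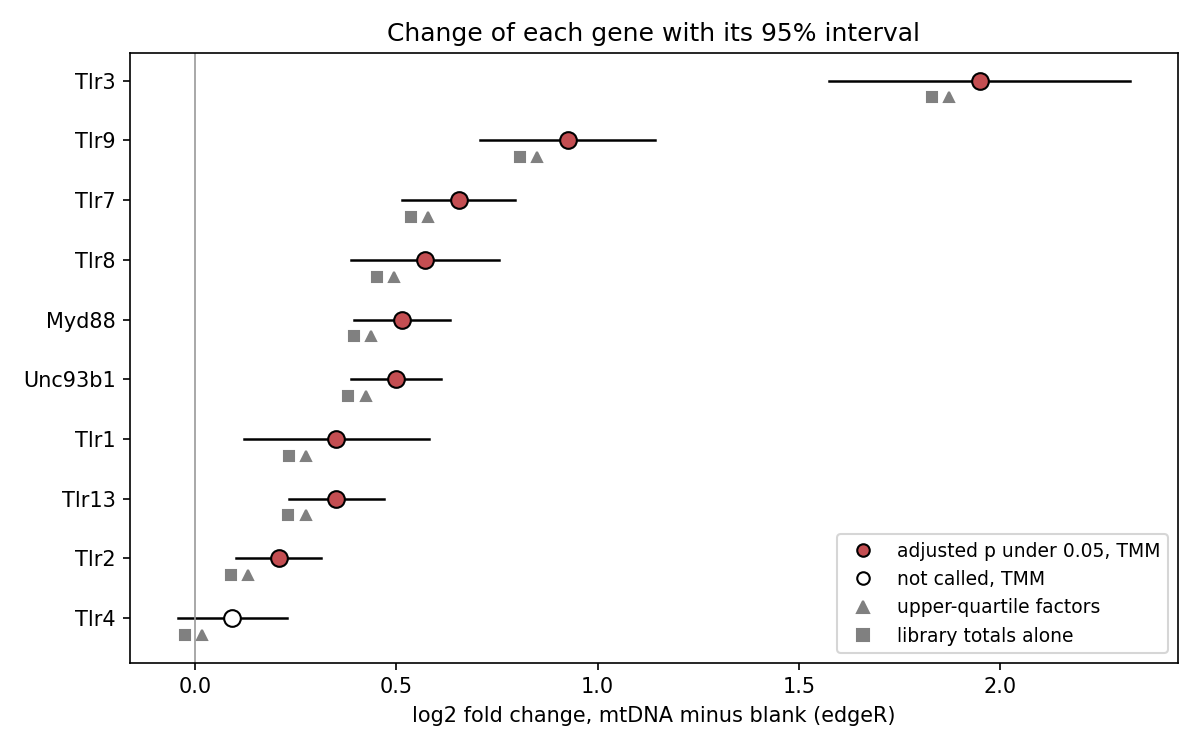
Log2 fold change (mtDNA minus blank, edgeR) of each gene with its 95% interval under TMM scaling (circles, filled where the adjusted p was under 0.05), and under upper-quartile factors (triangles) and library totals (squares). Tlr3 lies at 1.95 and Tlr4 at 0.09, and the other scalings shift every gene to the left by a like amount.

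A ratio of reads within a library does not depend on scaling between libraries. Tlr2 served as the denominator for the other 9 genes, a choice made after its values were seen. Since Tlr2 itself rose under TMM scaling, a gene that stayed level there would have a lower ratio. Tlr9 had 4.94, 5.88 and 5.28 reads per 100 Tlr2 reads in blank and 8.91, 9.44 and 8.23 in mtDNA cells, a 1.65-fold higher ratio. The ratio was 3.34-fold higher for Tlr3, 1.37-fold for Tlr7, 1.29-fold for Tlr8, 1.24-fold for Myd88 and 1.22-fold for Unc93b1, with no overlap between the groups. For Tlr4 it was lower, at 20.5, 21.5 and 19.98 in blank and 18.8, 19.97 and 18.6 reads per 100 Tlr2 reads in mtDNA cells, groups that almost touch. Each of these 7 ratios had an exact two-sided permutation p of 0.1, the smallest that 3 against 3 can give (0.129 after Benjamini-Hochberg adjustment over 9 ratios). For Tlr13 and Tlr1 the groups overlapped (exact permutation p = 0.2 and 0.4, adjusted 0.225 and 0.4). The share of all tested genes whose ratio to Tlr2 separates the groups was not computed, so whether the separation is particular to these genes is not known.

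**Figure D3:**
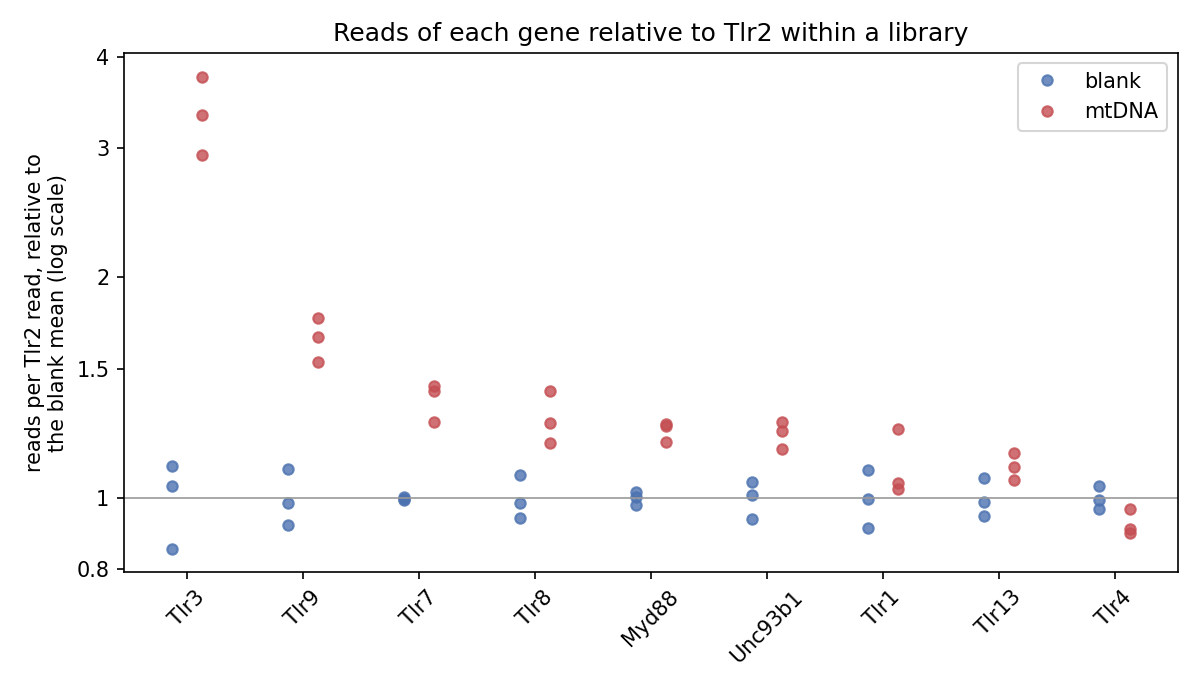
Reads of each gene per Tlr2 read in the 3 blank (blue) and 3 mtDNA (red) libraries, divided by the blank mean of that gene (log axis). The red points of Tlr3 and Tlr9 centre on 3.34 and 1.65, those of Tlr13 and Tlr1 overlap the blue ones, and those of Tlr4 lie below 1.

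To compare genes with each other, counts were set per kilobase of annotated exon and scaled to the same total in each library (TPM, without TMM factors). In blank cells the order was Tlr2 (453 ± 18.8 TPM, SD, n = 3), Unc93b1 (438 ± 14.2), Tlr13 (238 ± 18.2), Myd88 (217 ± 9.08), Tlr7 (64.6 ± 2.40), Tlr4 (50.8 ± 0.613), Tlr8 (41.3 ± 4.38), Tlr1 (23.6 ± 1.30), Tlr9 (21.0 ± 1.14) and Tlr3 (3.78 ± 0.630). Tlr2 and Unc93b1, and Tlr13 and Myd88, overlapped over their libraries, and all other neighbours were apart. Tlr9 thus lay well under its endosomal relatives Tlr13, Tlr7 and Tlr8 in blank cells, and well above Tlr3. In mtDNA cells the order changed: Unc93b1 (570 ± 23.3 TPM) lay above Tlr2 (481 ± 12.4), Tlr8 (56.2 ± 3.23) above Tlr4 (49.8 ± 0.657), and Tlr9 (36.9 ± 1.67) above Tlr1 (27.8 ± 2.25). Myd88 (285 ± 7.16) and Tlr13 (279 ± 5.46) overlapped there. Tlr7 reached 93.6 ± 4.14 TPM and Tlr3, still the lowest, 13.4 ± 1.88 TPM. With the longest transcript as the length, Unc93b1 led Tlr2 already in blank cells (448 against 346 TPM), Tlr4 was just above Tlr7 there (52.9 against 51.7 TPM), and in mtDNA cells Tlr4 (52.1) was above Tlr8 (45.1 TPM).

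Of the summed TPM of the 8 receptors, the 5 endosomal ones made up 42.0%, 40.7% and 40.7% in blank and 46.5%, 47.1% and 44.99% in mtDNA libraries. The gain came from Tlr7, Tlr9, Tlr3 and Tlr8, since the share of Tlr13 was 26.6% ± 1.21 and 26.9% ± 0.435. The share of Tlr2 went from 50.5% ± 0.753 to 46.3% ± 1.24.

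**Figure D4:**
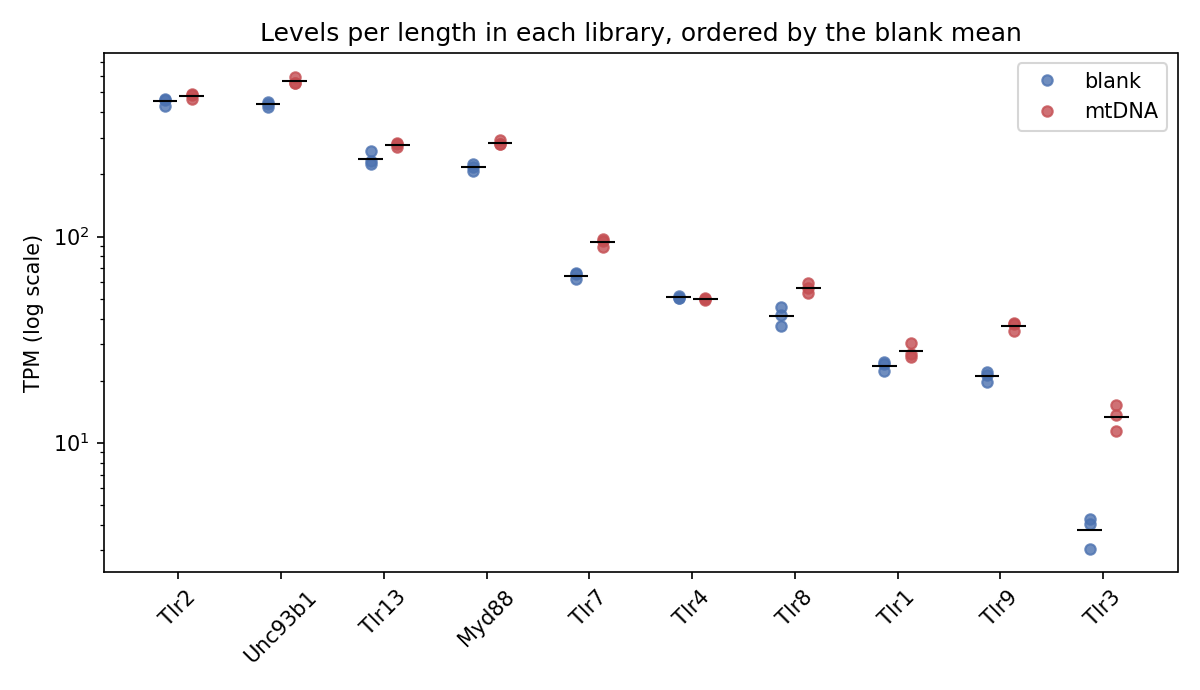
TPM (log axis) of each gene in the 3 blank (blue) and 3 mtDNA (red) libraries, with group means as bars, ordered by the blank mean. Levels span from 3.78 TPM for Tlr3 to 453 TPM for Tlr2 in blank cells, and Tlr9 passes Tlr1 in mtDNA cells.

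The other genes of the pathway were taken from 8 lists by role, 89 genes of which 88 matched a row and 83 were tested. Like the members described above, the lists were chosen with earlier results of these data known. Of these 83 genes 33 were higher and 2 lower in edgeR, 39.8% and 2.41% beside 11.9% and 5.98% of all tested genes. With library totals 23 were higher and 7 lower, 27.7% and 8.43% beside 7.69% and 21.1% of all tested genes. With TMM the list had a median log2 fold change of 0.19 beside -0.01 for all tested genes.

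Of the remaining receptors, Tlr6 (log2 0.24 ± 0.095, edgeR adjusted p = 0.0869) and Tlr5, the flagellin receptor (log2 0.36, adjusted p = 0.193), were not called. Tlr11 and Tlr12 had 38 and 19 reads in all 6 libraries, too few to be tested. Among 7 genes of ligand delivery and co-receptors 3 were higher (42.9%, to be read, like the shares that follow, beside the 11.9% higher and 5.98% lower of all tested genes). Cd180, a Toll-like surface receptor without a signalling domain of its own, went from 151 ± 4.83 to 280 ± 18.6 CPM, a log2 rise of 0.89 ± 0.060 (edgeR adjusted p = 1.13e-10). Ly86, its partner, rose as well (log2 0.80 ± 0.18, edgeR adjusted p = 0.00322), and Cd14, which hands lipopolysaccharide to Tlr4, by less (log2 0.20 ± 0.062, edgeR adjusted p = 0.0322). The call of Cd14 was not checked under the other scalings.

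Of 13 tested genes for folding, trafficking and endolysosomal processing, 6 were higher (46.2%) and 1 lower (7.69%), the latter a share near that of all tested genes. Ctss, a lysosomal protease that can trim endosomal receptors, had 1237 ± 46.4 CPM in blank and 1760 ± 94.0 CPM in mtDNA cells, a log2 rise of 0.51 ± 0.048 (edgeR adjusted p = 3.76e-08). Slc15a3, an endolysosomal peptide transporter, rose by log2 0.47 ± 0.059 (edgeR adjusted p = 2.54e-06). Cnpy3, a chaperone that folds surface receptors and Tlr9, went the other way, with log2 -0.20 ± 0.059 (edgeR adjusted p = 0.0187). Its call did not hold in DESeq2 (adjusted p = 0.0819) nor in edgeR without blank 2 (0.0608) or mtDNA 3 (0.118).

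Of the other adaptors, Pik3ap1, which links receptors to phosphoinositide kinase, was the 1 of 4 tested to pass (25.0%). It had 440 ± 23.2 and 672 ± 8.05 CPM (log2 0.61 ± 0.050, edgeR adjusted p = 2.71e-09). Ticam1, the adaptor of Tlr3, had log2 0.22 (edgeR adjusted p = 0.0697), and Tirap, which brings Myd88 to Tlr2 and Tlr4, log2 0.05 (0.736).

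Of 18 kinases and ubiquitin ligases 5 were higher (27.8%) and 1 lower (5.56%), the latter again a share near that of all tested genes. Peli1, a ubiquitin ligase, had 30.1 ± 1.91 and 55.3 ± 3.42 CPM, a log2 rise of 0.88 ± 0.093 (edgeR adjusted p = 2.24e-07), and Tbk1, a kinase that activates Irf3, by log2 0.49 ± 0.061 (edgeR adjusted p = 2.98e-06). Irak1, a kinase recruited by Myd88, had log2 -0.18 ± 0.060 (edgeR adjusted p = 0.0450), and this call was lost in DESeq2 (adjusted p = 0.185), without the filter (0.0600) and on leaving out any 1 library (0.0503 to 0.140).

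Of 15 negative regulators 6 were higher (40.0%), led by Socs1 (log2 1.15 ± 0.086, edgeR adjusted p = 6.45e-10) and Atf3 (log2 0.66 ± 0.055, edgeR adjusted p = 4.28e-09), a repressor of cytokine genes. Of 10 transcription factors 6 were higher (60.0%). Irf7, which activates interferon genes downstream of Tlr7 and Tlr9, had 48.0 ± 24.6 and 623 ± 93.6 CPM (log2 3.72 ± 0.18, edgeR adjusted p = 4.44e-13), with blank libraries that varied from 110 to 301 reads. Irf1 rose by log2 1.42 ± 0.063 (edgeR adjusted p = 1.07e-13). Of 14 tested inflammatory target genes 6 were higher (42.9%), among them the chemokine genes Ccl4 (log2 1.04 ± 0.088, edgeR adjusted p = 6.15e-09) and Ccl3 (log2 0.63 ± 0.078, edgeR adjusted p = 2.28e-06).

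**Figure D5:**
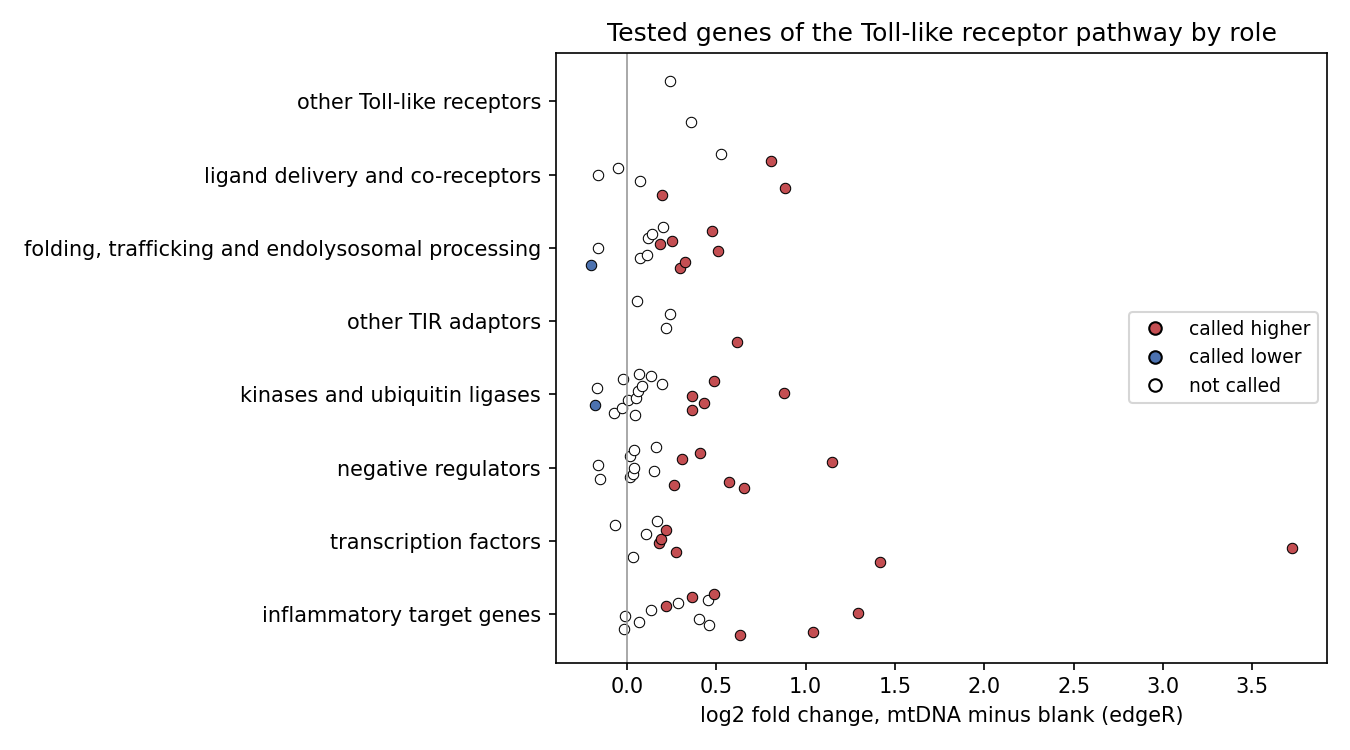
Log2 fold change (mtDNA minus blank, edgeR) of each tested pathway gene outside the 10, 1 point per gene, by role. Red points were called higher, blue lower and open points not called; Irf7 at 3.72 lies far from the rest, and most open points lie near 0.

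Markers of other cells that carry these receptors were measured beside them. Of 8 monocyte and macrophage markers 5 were higher in mtDNA cells (62.5%, to be read, like the shares below, beside 11.9% of all tested genes). Mertk and Ly6c2 rose most (log2 1.07 ± 0.090 and 0.85 ± 0.054, edgeR adjusted p = 5.91e-09 and 4.89e-11), and Csf1r by log2 0.12 ± 0.042 (edgeR adjusted p = 0.0442). Cd68 and Ccr2 also changed little, with log2 fold changes of 0.18 and 0.16 (adjusted p of 0.0212 and 0.0493 in edgeR). For Ccr2 the groups overlapped. Csf1r, Cd68 and Ccr2 changed less than Tlr2, whose call ended with upper-quartile factors and with library totals. The marker calls were not checked under these scalings, so the count of 5 holds for TMM only. The summed level of the 8 markers ranged from 3502 to 3640 CPM in blank and from 4235 to 4450 CPM in mtDNA libraries. Their part in the receptor changes was not tested. Plasmacytoid dendritic cells, which are rich in Tlr7 and Tlr9, left few reads: Siglech had 5 reads in all blank and 1 in all mtDNA libraries, and Klk1 had 0 in all 6, where 3 counts would be 0.611 to 0.747 CPM. The 7 markers of that type summed to 21.0 to 29.8 CPM in blank and 38.9 to 42.0 CPM in mtDNA libraries, mostly Tcf4, the 1 of 2 tested that was higher (log2 0.81 ± 0.12, edgeR adjusted p = 3.86e-05). The 6 B cell markers summed to 21.4 to 28.02 and 26.0 to 29.6 CPM, and the 4 tested had edgeR adjusted p of 0.380 to 0.855. Of 12 neutrophil markers Ngp alone was higher (8.33%, a share near that of all tested genes), by log2 0.17 ± 0.050 (edgeR adjusted p = 0.0182). The neutrophil list summed to 7838 to 8258 and 8185 to 8818 CPM. Conventional dendritic cell markers summed to 736 to 756 and 773 to 783 CPM. Those of eosinophils, basophils and mast cells summed to 190 to 210 and 218 to 235 CPM. Among the 8 tested of these, Mcpt8 was higher (12.5%, again near the share of all tested genes). Those of T and NK cells summed to 4.00 to 8.42 and 5.11 to 5.35 CPM, with Ncr1 at 0.

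The genes whose log2 CPM followed that of Tlr9 most closely over the 6 libraries were Lyn, Aida, Nfkb1, Cept1 and Setdb2, with Pearson r of 0.998 to 0.996. They were the first of 7078 genes with at least 20 CPM, of which 484 had r over 0.95. The libraries form 2 groups, and with the group means removed r was 0.9504 for Lyn, 0.869 for Aida, 0.907 for Nfkb1, 0.821 for Cept1 and 0.789 for Setdb2, a description of 6 deviations. The genes were picked by r over these same libraries, which raises these values, so they cannot show variation shared beyond the groups. Their changes differed in size, from log2 0.19 ± 0.051 for Nfkb1 to 1.64 ± 0.13 for Setdb2.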

How the data were processed

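The authors deposited whole-number read counts per Ensembl gene ID, not normalized, from single-end reads of 75 bases. The submitters' processing notes name STAR 2.7.10a, GRCm39, FastQC and DESeq2. For annotation release and strand setting: not given in the sources used here. Symbols, exon lengths and overlaps came from GENCODE M21 (GRCm38), and 3276 rows without a symbol hold 0.312% of counts and have no TPM. Library totals set the precision, and intervals and floors cover counting error or library spread only. Replicates of a group were more different than counting error allows (chi-square over its degrees of freedom 1.54 to 2.28), so no pair was taken for 1 library deposited again; this does not show that they come from separate cultures.

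All genes were fitted with edgeR 4.0.16 in R 4.3.3 (default filter, TMM, quasi-likelihood, two-sided, Benjamini-Hochberg over 11190 tested genes, threshold 0.05); SE is the log2 fold change divided by the root of F. In simulated data for this comparison (11190 genes) it recovered 32%, 82%, 90% and 100% of genes changed 1.2-, 1.5-, 2- and 4-fold, with 4.40% false calls. DESeq2 1.42.0, limma 3.58.1 (voom), other scalings and filters, a block and omission of each library were alternatives. Named pathway genes were the up to 2 risen and 2 fallen with the smallest p per list, or the one with the smallest p; Tlr5, Ticam1, Tirap, Cd14 and the marker genes were named after their values were seen. The 10 genes and the lists were chosen with earlier results of these data known. Protein sequences were not used here.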

Additional observations from a re-analysis of the deposited data

How the results depend on the processing

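Under the 14 alternatives, the calls of Tlr3, Tlr7, Tlr8, Tlr9, Tlr13, Unc93b1 and Myd88 and their direction held in each, with log2 fold changes of 1.81 to 2.06 for Tlr3 and 0.81 to 0.97 for Tlr9. Of the 10 genes, 7 were called higher with upper-quartile factors or library totals and 8 in DESeq2. Tlr4 turned from 0.09 to -0.026 under library totals, and the calls of Tlr1 and Tlr2 ended as given above. The cause of these losses was not tested. Over all genes, library totals gave 861 higher and 2356 lower, upper-quartile factors 1504 lower, DESeq2 217 lower, and omission of single libraries 410 to 522 lower, least without blank 3 (410) and mtDNA 1 (437). Pathway genes called lower numbered 4 with upper-quartile factors, 7 with library totals, 1 without a filter, 0 in DESeq2 (2 at an unadjusted p under 0.05, where edgeR has 4), and 0 to 1 when any single library was left out (0 without blank 2 or mtDNA 3). For the 16 pathway genes named by smallest p there were 224 values. Of these, 213 kept their call and direction and 11, all of Cnpy3 or Irak1, lost the call. Single-gene values under the alternatives were not taken for Cd14, Tlr5, Ticam1, Tirap, the marker genes or the genes set beside Tlr9. Whether calls such as those of Cd14, Csf1r and Ngp hold there was not tested. Neighbouring title numbers as a replicate block gave 1387 higher and 747 lower genes and the same count of 9 among the 10. The libraries so paired had an r of deviations of 0.0404 to 0.0449. No r of libraries paired otherwise was set beside it, so it does not decide whether the numbers mark pairs. The main fit did not use them as pairs. At this depth Tlr11 and Tlr12 could not be compared.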
